A study of Mus musculus with 2 samples.

Results

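The mouse genome holds 3 genes for the microRNA (miRNA) miR-7, named Mir7-1, Mir7-2 and Mir7b, and their own-strand read counts were examined in newborn hindbrain. They were found by gene name among the 1973 miRNA genes of the deposited tables, after matching Ensembl IDs to GENCODE M21, and each of the 3 had 1 row. The study made 2 microRNA-seq libraries from total RNA, size-selected below 30 nucleotides, each from the single hindbrain of 1 newborn pup of strain B6NCrl at postnatal age 0 day. Replicate 1 was pup 1 and replicate 2 was pup 3. The labels record no genetic change or treatment, give no sex, and put both pups under 1 donor identifier, so the libraries form 1 group and no contrast of conditions was possible.

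miRNAs are cut as arms of about the same length from a hairpin precursor, and the 5' arm of the miR-7 hairpin is its main product. miR-7 is an ancient miRNA that is high in neurosecretory neurons, pituitary and pancreatic islet cells, and it represses targets through its seed, bases 2 to 8 of the mature strand. In the brain it belongs to a circuit of noncoding RNAs. The circular RNA Cdr1as carries many miR-7 sites, the long noncoding RNA Cyrano directs the destruction of miR-7, and miR-671 directs the cleavage of Cdr1as.

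Which reads can be given to each gene depends on how the copies differ, so the mature arms are shown first, from RefSeq on GRCm38.p6, with the seed in capitals.

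miR-7a-5p (Mir7-1 and Mir7-2): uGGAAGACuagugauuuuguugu

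miR-7b-5p (Mir7b): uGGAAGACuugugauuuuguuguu

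miR-7a-1-3p (Mir7-1): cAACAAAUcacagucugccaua

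miR-7a-2-3p (Mir7-2): cAACAAGUcccagucugccaca

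miR-7b-3p (Mir7b): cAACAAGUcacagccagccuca

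The 5' arm of Mir7-1 and Mir7-2 is 1 and the same sequence of 23 bases. The 5' arm of Mir7b is listed with 24 bases, and over the first 23 it equals miR-7a-5p at 22, the difference being A10U, counted from 1 at the 5' end of the mature strand. The difference lies outside the seed, and all 3 genes carry the 5' seed GGAAGAC. Of the 1058 miRNA genes with a mature sequence in the RefSeq table, these 3 were the ones with that seed. The 3' arms differ more. Between miR-7a-1-3p and miR-7a-2-3p the changes are A7G, A10C and U21C, leaving 19 of 22 bases equal, and A7G falls in the seed. Between miR-7a-2-3p and miR-7b-3p, 18 of 22 bases are equal and the seed is the same, AACAAGU. Between miR-7a-1-3p and miR-7b-3p, 17 of 22 are equal.

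The hairpins show where in each precursor the copies can be told apart. Capitals mark the mature arms.

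Mir7-1 hairpin: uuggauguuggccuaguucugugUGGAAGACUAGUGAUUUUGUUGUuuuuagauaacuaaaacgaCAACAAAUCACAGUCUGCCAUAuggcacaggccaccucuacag

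Mir7-2 hairpin: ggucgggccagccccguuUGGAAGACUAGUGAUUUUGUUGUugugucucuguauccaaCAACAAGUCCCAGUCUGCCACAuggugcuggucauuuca

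Mir7b hairpin: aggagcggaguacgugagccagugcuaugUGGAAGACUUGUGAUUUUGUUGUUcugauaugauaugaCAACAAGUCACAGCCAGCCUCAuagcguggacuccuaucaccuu

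The hairpins have 108, 97 and 111 bases, with a GC content of 41.7%, 50.5% and 46.8%. The longest stretch that Mir7-1 and Mir7-2 share is 24 bases long, the whole 5' arm and 1 base past it. A read that lies within that stretch matches both genes and cannot be given to either. Against Mir7b the longest shared stretch of each was 14 bases. Of the 89 stretches of 20 bases in the Mir7-1 hairpin, 5 also occur in another of the 1005 hairpins in the RefSeq table, and so do 5 of 78 in Mir7-2. In both, the other hairpin was the other miR-7a copy, and all 4 stretches inside the 5' arm were among them. None of the 3 stretches inside either 3' arm was shared. In Mir7b, 0 of 92 stretches were shared. Among the 141767 transcripts of GENCODE M21, no gene other than the miR-7 genes held a whole miR-7 arm on either strand. Places outside annotated transcripts were not searched.

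**Figure D1:**
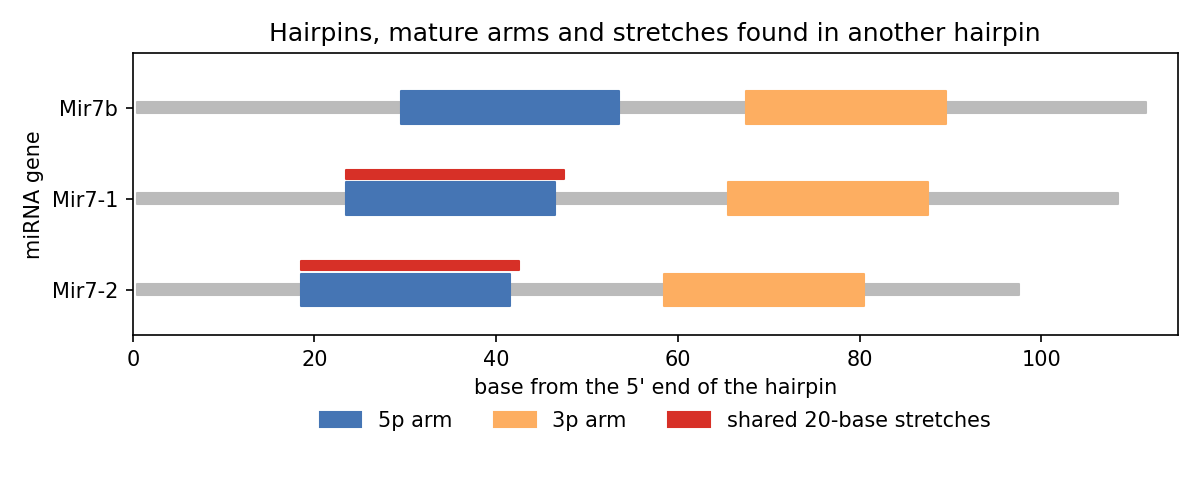
Each grey bar is 1 hairpin drawn to scale, in bases from its 5' end, with the 5' arm in blue and the 3' arm in orange. Red bars mark bases within a 20-base stretch found in another hairpin, and they cover the 5' arm and 1 further base in Mir7-1 and Mir7-2 and nothing in Mir7b.

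The genes lie on 3 chromosomes in different settings (GRCm38, the assembly of mm10). Mir7-1 (ENSMUSG00000065434.1) is at chr13:58392779-58392886 on the minus strand, in an intron of Hnrnpk, which encodes an RNA-binding protein. Of the 34 annotated Hnrnpk transcripts, 12 span it, and no Hnrnpk exon overlaps it. Mir7-2 (ENSMUSG00000065609.1) is at chr7:78888277-78888373 on the plus strand, and no other annotated gene of that strand contains it. Genes of the opposite strand were not searched for this. The nearest gene downstream is Aen, which starts after 7480 intervening bases on the same strand. Mir7b (ENSMUSG00000065491.1) is at chr17:56242988-56243098 on the plus strand, where likewise no other gene of that strand contains it. From the end of the noncoding gene AC026385.1 on that strand, 182 bases separate it.

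Mir7b had the most own-strand counts of the 3 genes in both hindbrains. It had 11763 counts in pup 1 and 8930 in pup 3. In CPM (own-strand counts scaled so that all miRNA genes of a library sum to 1000000) these are 2398 (exact Poisson 95% interval 2354 to 2441) and 1431 (1402 to 1461), with a mean of 1915 ± 683 (SD, n = 2). Mir7-1 had 2230 and 2357 counts, or 454.5 CPM in pup 1 (435.9 to 473.8) and 377.8 CPM in pup 3 (362.7 to 393.4), with a mean of 416.2 ± 54.3 (SD, n = 2). Pup 1 was the higher library in CPM for both, and no Mir7-1 value came near a Mir7b value. Mir7-2 had 1679 and 1755 counts, or 342.2 CPM (326.0 to 359.0) and 281.3 CPM (268.3 to 294.8), with a mean of 311.8 ± 43.1 (SD, n = 2). The order Mir7b, Mir7-1, Mir7-2 held in each pup, and the values of neighbours in that order did not overlap across pups. The arms have 22 to 24 bases, so counts were not divided by length. The intervals cover counting error only and take each read as a separate molecule.

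This order is one of the reads that could be placed. The tables keep reads that matched several genomic places in a row of their own, and a read of miR-7a-5p within the 24 shared bases matches both Mir7-1 and Mir7-2. No hairpin in the RefSeq table shares the 5' arm of Mir7b. That row holds 4601400 reads in pup 1 and 5639848 in pup 3, 294 and 432 times the summed miR-7 counts, and its sequences are not given, so how many were miR-7a-5p was not measured. The levels of Mir7-1 and Mir7-2 may therefore leave out miR-7a, and the gap between Mir7b and the miR-7a genes cannot be read as a difference in expression. Counts are per gene, so whether the reads given to Mir7-1 and Mir7-2 came from the 3' arm or from 5' arm reads that run past the shared bases was not recorded. Ligation during library preparation also favours some small RNAs over others, so a level of 1 gene against another reflects capture too.

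**Figure D2:**
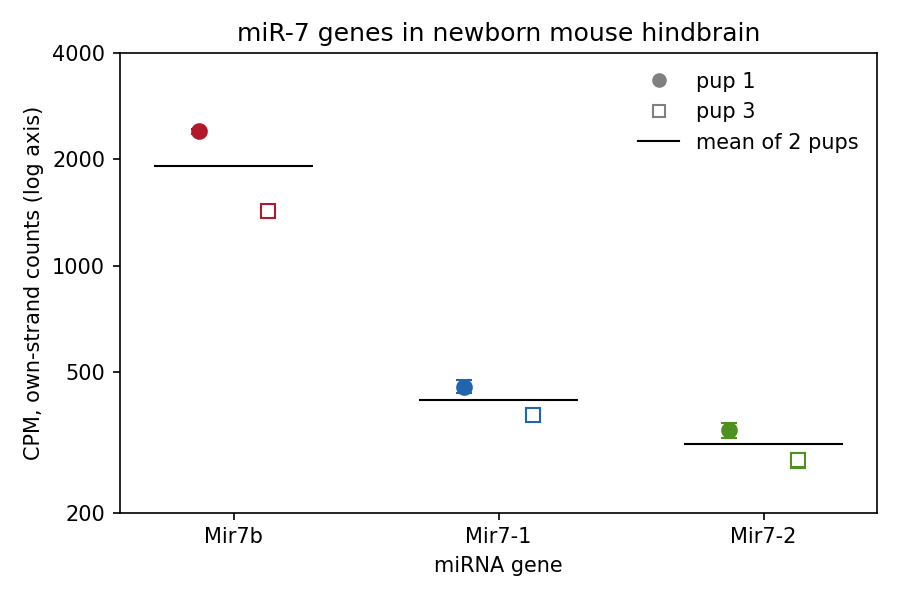
Own-strand CPM (log axis) of the 3 miR-7 genes in pup 1 (filled circles) and pup 3 (open squares), with exact Poisson 95% intervals and the mean of both pups as a line. Mir7b lies at 2398 and 1431 CPM, above Mir7-1 at 454.5 and 377.8 and Mir7-2 at 342.2 and 281.3.

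Together the 3 genes reached 3194 CPM in pup 1 and 2091 in pup 3, or 0.264% ± 0.0781 (SD, n = 2) of own-strand counts. All 3 reached the detection level of 2 CPM in both pups, as did 407 of the 1973 genes (20.6%). A detected row of similar name, Mir7j, had 36.28 CPM in pup 1 and 29.49 in pup 3 and was not among the genes chosen. By mean CPM, Mir7b ranked 83, Mir7-1 ranked 150 and Mir7-2 ranked 175 of the 1973. The median of the detected genes was 178 CPM, with quartiles of 12.6 and 1070 CPM, so Mir7b lay above the upper quartile and both miR-7a genes lay between the median and the upper quartile. The genes next to Mir7b in mean level, over 2 libraries, were Mir467d at 1956 ± 166 CPM above it and Mir16-1 at 1905 ± 826 CPM below it. Mir7-1 stood between Mir325 at 422.2 ± 4.26 CPM and Mir543 at 412.8 ± 9.52 CPM. Mir7-2 stood between Mir500 at 318.3 ± 9.03 CPM and Mir672 at 302.3 ± 43.8 CPM. Each of these neighbours differed from its miR-7 gene by less than the SD of that gene. With 1 group of 2 libraries no pattern across conditions exists, and nearness in level is the one likeness given.

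No read mapped to the opposite strand of any of the 3 genes. The counts were 0 in both pups, and the any-strand counts equalled the own-strand counts. Over all genes, opposite-strand counts were 3.02% of gene counts in pup 1 and 3.39% in pup 3. With a floor of 3 counts, such a 0 allows a level of at most 0.611 CPM (pup 1) or 0.481 CPM (pup 3).

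Among the reads that could be placed, Mir7b differed between the hindbrains more than the miR-7a genes did. Reads of miR-7a-5p within the shared bases are not in these counts, so miR-7a as a whole was not compared. The CPM of Mir7b in pup 3 was 0.597 times that in pup 1, against 0.831 times for Mir7-1 and 0.822 times for Mir7-2. On library sizes scaled by TMM, which equalises the bulk of genes and raises the ratio of pup 3 to pup 1 by 0.14 on the log2 scale (less for low counts, through the pseudocount), the log2 difference of pup 3 minus pup 1 was -0.61 with a counting error (SE) of 0.02 for Mir7b. An exact binomial test of the counts, with Benjamini-Hochberg adjustment over the 508 genes with 10 or more counts in sum, gave Mir7b an adjusted p of 7.08e-198. For Mir7-1 the log2 difference was -0.13 with an SE of 0.04 (exact binomial test, adjusted p = 0.00621). For Mir7-2 it was -0.14 with an SE of 0.05 (exact binomial test, adjusted p = 0.00789). So 3 of 3 passed at any fold, in a comparison where 47.6% of tested genes did, 23.8% with the lower value in pup 3. None of the 3 reached the 2-fold difference also required for a call, which 6.69% of tested genes met, 5.71% as lower in pup 3. With DESeq2 size factors the adjusted p of the exact binomial test was 0.514 for Mir7-1, at a log2 difference of -0.04, and 0.399 for Mir7-2, at -0.05. With the same factors Mir7b stayed at -0.51 (exact binomial test, adjusted p = 2.45e-143).

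These p-values compare 2 libraries and cover counting error, and the variation among animals or among preparations is not in them. Over the 407 detected genes the median log2 difference was -0.01 and its median size 0.27. A larger difference than that of Mir7b was seen in 68 of them (16.7%), and 297 and 283 exceeded Mir7-1 and Mir7-2. The coefficient of variation over the pups was 0.357 for Mir7b, 0.130 for Mir7-1 and 0.138 for Mir7-2, beside a median of 0.141 over detected genes. In whole tissue, fewer cells of a type and less RNA per cell cannot be told apart.

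**Figure D3:**
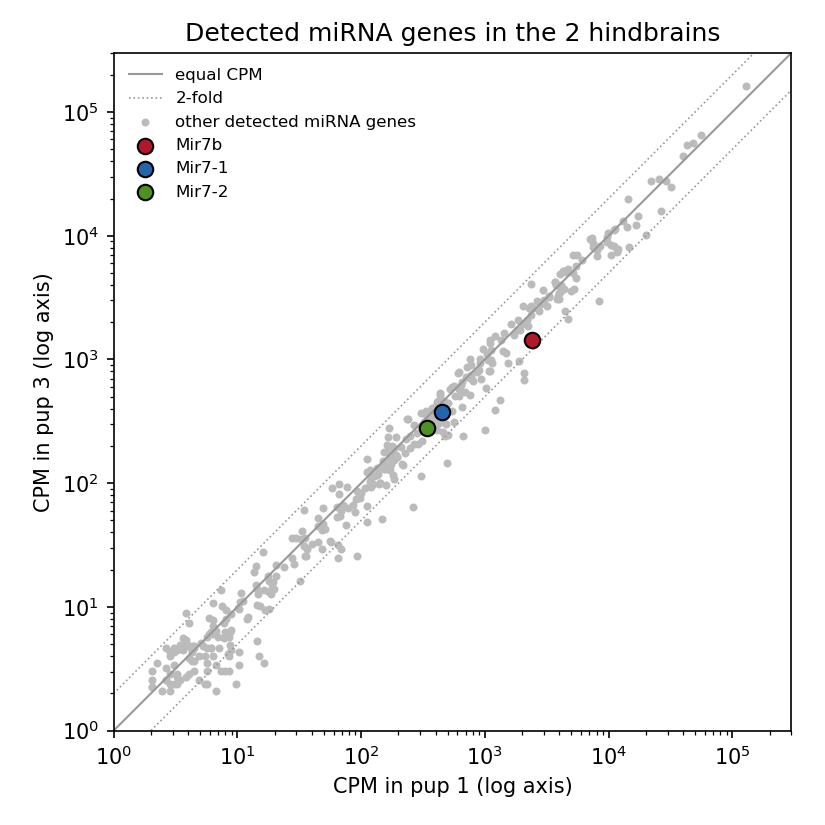
CPM in pup 1 against CPM in pup 3 (both log axes) for the 407 detected miRNA genes, with the line of equal CPM and dotted lines at 2-fold. Mir7b lies below the line of equal CPM and inside the 2-fold line, and Mir7-1 and Mir7-2 lie closer to it.

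The difference of Mir7b between the hindbrains also shows in the makeup of the miR-7 counts that could be placed. Mir7b held 75.1% of them in pup 1 (exact Clopper-Pearson 95% interval 74.4 to 75.7) and 68.5% in pup 3 (67.7 to 69.3). Mir7-1 held 14.2% (13.7 to 14.8) and 18.1% (17.4 to 18.7), and Mir7-2 held 10.7% (10.2 to 11.2) and 13.5% (12.9 to 14.1). The intervals of the 2 pups did not overlap for any of the 3, by counting error alone. The shares are parts of the same total, so a lower share of Mir7b raises the others, and these are not separate results. The ratio of Mir7b to Mir7-1 counts was 5.27 in pup 1 and 3.79 in pup 3, and that of Mir7b to Mir7-2 was 7.01 and 5.09. Between the miR-7a genes the ratio was steady. Mir7-1 over Mir7-2 was 1.33 in pup 1 and 1.34 in pup 3, a log2 change of 0.02 with a counting SE of 0.07. Such ratios within a library do not depend on its scaling.

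The steady ratio of Mir7-1 to Mir7-2 was set beside that of other pairs of genes that encode an identical mature arm. The identical arm may be either arm of the hairpin, so the pairs are not all alike in which reads are lost. A read within that arm matches both genes, so each ratio is one of the reads that could be placed. In RefSeq, 97 genes had an arm identical to that of another gene, 87 of them had a row under the same symbol, and 48 of these were detected. Among them were 20 pairs with both genes detected. Within a pair, the gene with more counts exceeded the other by a median of 3.84 times in pup 1 and 3.92 times in pup 3. Mir7-1 and Mir7-2, at 1.33 and 1.34 times, were among the 5 pairs within 1.5 times in both libraries, with Mir125b-1 and Mir125b-2 at 1.02 and 1.03 times. At the other end stood Mir181b-2 over Mir181b-1, at 61.05 and 75.82 times. The ratio within a pair changed between pups by a median of 0.20 on the log2 scale. Its change for Mir7-1 and Mir7-2 was 0.02, with a counting SE of 0.07, and 1 pair changed less, Mir30c-1 and Mir30c-2 at -0.01 with an SE of 0.16. The largest change was that of Mir29b-1 over Mir29b-2, at -1.62 with an SE of 0.57 and 13 to 46 counts per gene and library. The counting SE ran from 0.02 for Mir125b-1 and Mir125b-2 to 0.61 for Mir450-1 and Mir450-2. The order of the pairs by change therefore holds counting error too. Mirlet7c-2 stands in more than 1 pair. The pairs were chosen after the data were seen, and their differences are given as values with no test.

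**Figure D4:**
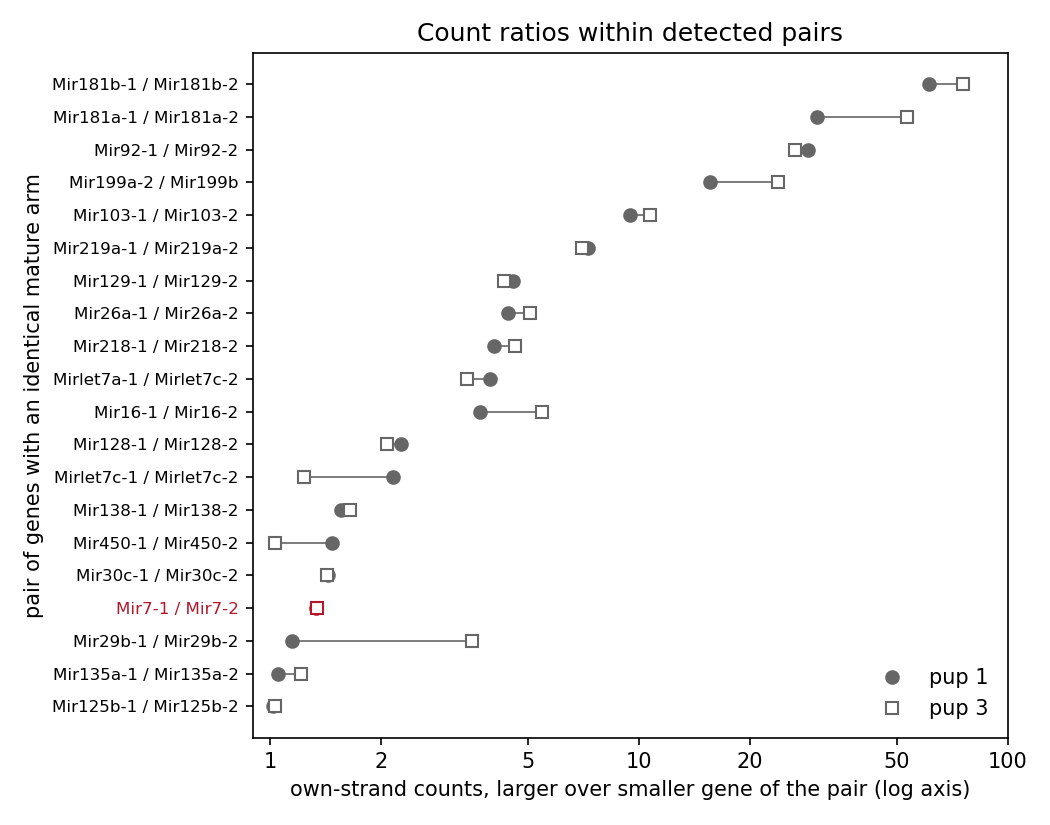
For each of the 20 pairs of detected genes with an identical mature arm, the counts of the larger gene over those of the smaller (log axis) in pup 1 (filled circles) and pup 3 (open squares). The identical arm may be either arm, and reads within it match both genes and are left out. The pair Mir7-1 and Mir7-2, in red, lies at 1.33 and 1.34, near the low end of a range that reaches 75.82.

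The miR-7 genes were then set beside genes linked to them by circuit, cell type or copy structure. Mir671, whose miRNA directs cleavage of Cdr1as, had 502.6 CPM in pup 1 against 244.4 in pup 3. Its log2 difference was -0.90 with an SE of 0.05 (exact binomial test, adjusted p = 9.37e-84), under the 2-fold requirement on TMM sizes and past it on library totals, at -1.04. Mir671 and Mir7b were both lower in pup 3, in a comparison of 2 libraries. Of the 407 detected genes, 209 were lower in pup 3 by any amount, and 23.8% of tested genes passed as lower at any fold. Whether the 2 genes vary together was not tested.

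Of 11 genes of neuroendocrine and sensory epithelial miRNAs, all were detected, with a median of 122 CPM. At any fold, 3 of 11 passed as lower and 4 as higher in pup 3, near the 23.8% of all tested genes that passed in each direction, with a median log2 difference of 0.08 against -0.02 over all tested genes and -0.14 over the miR-7 genes. On library totals 5 passed as lower and 1 as higher, beside 192 and 87 of all 508 tested genes. The most abundant was Mir132, an activity-induced neuronal miRNA, at 2369 CPM in pup 1 and 2279 in pup 3. Mir182 of the sensory miR-183 cluster had 2066 and 686.5 CPM, at a log2 difference of -1.45. It was the list's one gene called at 2-fold, where 5.71% of all tested genes were called lower. Its cluster partner Mir183 had 894.0 and 822.6 CPM. Mir375, the islet and pituitary miRNA most often named with miR-7, had 465.3 and 458.6 CPM, a mean of 462.0 ± 4.77 (SD, n = 2), close to that of Mir7-1.

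Other miRNA genes of neural tissue also have several copies, so that reads of theirs can match several places, as those of Mir7-1 and Mir7-2 can. Of 16 such genes, 15 had a row and 12 were detected, with a median of 837 CPM. At any fold 7 of 15 passed as lower in pup 3 and 0 as higher, where 23.8% of all tested genes passed in each direction. At 2-fold 4 of 15 were called lower, against 5.71% of all tested genes. Of these 4, Mir124a-1 had 73 and 25 counts in pup 1 and pup 3, and Mir124a-3, which was not detected, had 17 and 4. At any fold with DESeq2 size factors, 5 of the 15 passed as lower and 3 as higher, beside 96 and 146 of all 508 tested genes. On library totals 12 and 0 of the 15 passed, beside 192 and 87 of the 508. The 4 most abundant were Mir129-2 at 3695 ± 381 CPM, Mir128-1 at 3587 ± 457 CPM, Mir128-2 at 1649 ± 111 CPM and Mir138-1 at 1425 ± 923 CPM. Mir138-1, from a brain-enriched family, had 2078 CPM in pup 1 against 772.4 in pup 3, while Mir128-2 had 1728 and 1571 CPM. The miR-7a genes lay below these 4 and moved between the libraries about as much as Mir128-1, whose log2 difference was -0.12.

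The labelled tissue was checked against marker genes. Of the hindbrain and neural marker list, 6 of 10 genes with a row were detected. The Hox-linked hindbrain genes Mir10a and Mir10b had 28400 ± 5360 and 14980 ± 6970 CPM, and Mir9-3 had 461.9 ± 108 CPM. Mir196b and Mir196a-2, also Hox-linked, had only 17.62 ± 2.47 and 5.192 ± 3.04 CPM, and Mir9-2 and Mir196a-1 were not detected. Of 9 tested genes of the hindbrain and neural marker list, 6 passed as lower in pup 3 at any fold and 0 as higher. Over all tested genes 23.8% passed in each direction. At 2-fold 2 of the 9 were called lower, Mir124a-1 and Mir124a-3, against 5.71% of all tested genes. The list's Mir9 and Mir124a genes are also in the multi-copy neural list, so the counts of these lists overlap. Its median log2 difference was -0.41. Among the 6 that passed as lower, Mir10b differed by -0.85, Mir9-3 by -0.34 and Mir10a by -0.25. The list's summed level was 52690 CPM in pup 1 and 35070 in pup 3. Nearly all of that sum came from Mir10a, at 32190 and 24600 CPM, and Mir10b, at 19910 and 10050 CPM. Of the 3 multi-copy Mir124a genes, which serve neurons, 1 was detected. Markers of other tissues were present too, below Mir10a and Mir10b but not below every neural marker: Mir217 of the exocrine pancreas list had 1031 ± 145 CPM. The erythroid pair Mir451a and Mir144 summed to 477.4 CPM in pup 1 and to 285.6 in pup 3, hepatic Mir122 had 44.64 and 45.20 CPM, and 3 exocrine pancreas genes summed to 1599 and 1479 CPM. Of the muscle list, 1 of 4 genes with a row was detected, Mir206 at 172.2 and 156.6 CPM, and Mir1a-1, Mir133a-1 and Mir133a-2 had 0 counts. Within the erythroid list Mir451a was lower in pup 3, at a log2 difference of -0.70, and Mir144 higher, at 0.88. Within the exocrine pancreas list Mir217 was lower in pup 3, at -0.15, and Mir216a and Mir216b higher, at 0.27 and 0.43. The part of the neural, hindbrain and erythroid markers in the difference of Mir7b was not tested. Own-strand gene counts were 4906127 in pup 1 and 6238680 in pup 3.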

How the data were processed

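For each library the authors deposited raw, unpooled read counts of miRNA genes, in 3 columns. These were taken from their values, not from a label, as any-strand, own-strand (the strand of the gene) and opposite-strand reads. The assembly mm10 and the annotation M4 are named in text files deposited with the tables. The names of the aligner and counter were not given in the sources used here. Rows that name no gene stayed out of library totals. They include reads at several genomic places, which were 37.9% of 12126529 reads in pup 1 and 39.4% of 14316243 in pup 3, and unmapped reads, 17.7% and 13.9%. Own-strand gene counts were 40.5% and 43.6%.

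Gene IDs were matched without version to GENCODE M21, and 1894 of 1973 had a match. Hairpins and mature arms come from the RefSeq miRNA table on GRCm38.p6, where all 3 miR-7 genes matched. Shared stretches of 20 bases were searched among its hairpins on both strands.

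The libraries were compared with a two-sided exact binomial test per gene (SciPy 1.17.1) that took library sizes scaled by TMM (edgeR 4.0.16), with a ratio of 1.16 for pup 3 over pup 1. A gene was called at an adjusted p under 0.05 together with a difference of 2-fold or more. Log2 differences had a pseudocount of 1 CPM. With 1 group, edgeR's quasi-likelihood test had no contrast to fit. Alternatives were DESeq2 1.42.0 size factors, library totals, other filters, folds, pseudocounts and strand, and each library left out.

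The members, lists and tests were chosen with earlier results of these data known. Named genes were the miR-7 genes, their neighbours in mean CPM, genes that share the seed, and up to 4 of the most abundant genes per list. Tissue markers were a separate list. The pairs of genes with an identical arm were added after the data were seen.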

Additional observations from a re-analysis of the deposited data

How the results depend on the processing

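Apart from leaving out a library, 49 alternatives were run for the miR-7 results and the count of differing genes, and 41 gave the same direction and call, or a value within 1 SD of the reported one (1.5 times for counts). Many of these outcomes were fixed in advance, so the tally shows little of stability. With 0 opposite-strand counts, any-strand shares equal own-strand shares. Pseudocounts and low-count filters hardly touch genes with 1679 counts or more. None of the 3 genes was called in the main setting, so an unchanged call does not mean that a result at any fold held. With DESeq2 size factors that result was lost for Mir7-1 and Mir7-2 (exact binomial test, adjusted p = 0.514 and 0.399). Per 1000000 of all reads in the table, mean levels were 174.3 for Mir7-1, 130.5 for Mir7-2 and 796.9 for Mir7b. From any-strand counts Mir7-1 ranked 158 and Mir7-2 ranked 184. Leaving out 1 of 2 libraries gives the other library's value, within 1 SD of the mean by construction, and shows nothing of stability. Mir7-2 then ranked 170 to 173. The 34 genes that differed by 2-fold became 18 with 100 or more counts required, 74 at 1.5-fold and 242 with no fold required. With DESeq2 size factors 25 of 33 were lower in pup 3, on library totals 38 of 42, and on TMM sizes 29 of 34. The log2 difference of Mir7b ran from -0.74 on library totals to -0.51 with DESeq2 size factors. No paired analysis was possible because the series holds 1 group. With 1 library left out there is no comparison of libraries. Depth did not limit the miR-7 genes, which had 1679 counts or more in each library, but the reads at several places do limit what Mir7-1 and Mir7-2 can show.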
